A study of Homo sapiens with 27 samples.

Results

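Of the 3177 short hairpin RNAs (shRNAs) of a pooled human kinome library, 34 were more abundant after both gefitinib and AZD8931 than after DMSO in UMSCC25 and UMSCC8, a pair of established human lines of head and neck squamous cell carcinoma (HNSCC). These 34 shRNAs were chosen by their measured values in these lines. Counts were scaled to the library total (CPM, counts per 1000000 counts of the library), the 3 plates of a group were averaged, and a DMSO mean of at least 50 CPM was required in both lines, which 2389 shRNAs met. The treated mean then had to be at least 1.33 times the DMSO mean in all 4 contrasts, gefitinib and AZD8931 in UMSCC25 and in UMSCC8. The values in these lines are therefore given as a description with no test. The third line of the screen, UMSCC1, had no part in the choice, and tests were run there.

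In such a screen each cell carries an integrated lentiviral cassette that encodes an shRNA against 1 gene and serves as a barcode. The share of counts of an shRNA follows the share of cells that carry it, so that a larger share after a drug is the readout commonly sought for a knockdown that lets cells tolerate it, and a smaller share for a knockdown that sensitizes them. Gefitinib is an ATP-competitive inhibitor of the epidermal growth factor receptor (EGFR), a receptor tyrosine kinase that many HNSCC overexpress, and AZD8931 inhibits EGFR together with the related receptors ERBB2 and ERBB3. Several shRNAs with different sequences usually target each gene, and each can also repress unintended transcripts through its seed.

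All groups were UMSCC25, UMSCC8 or UMSCC1 cells transduced with the MISSION TRC1 kinome library and selected with puromycin. In each line 3 plates received DMSO, 3 received gefitinib and 3 received AZD8931, which gave 27 libraries of cassettes amplified from genomic DNA. The drugs were present for 72 h and the cells recovered without them for 72 h, with harvest at 144 h. The treatment notes give 300 nM gefitinib and 30 nM AZD8931, but 1000 nM stands for both drugs elsewhere in the labels, so that no comparison of potency between the drugs was made. The same 3 DMSO plates of a line served both inhibitors, and the 2 contrasts of a line are not independent. The shRNAs are listed by clone identifier, and the sources used here pair none of the 34 with a gene. The 6 shRNAs that are paired with TGFBR1 or TGFBR2 include 0 of the 34.

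Library totals were 178406 to 559422 counts, and the median of the 34 shRNAs was 41.5 to 173 counts per library. Of the 34 shRNAs, 1 had a count of 0, in 1 library. Of the 27 libraries, 3 stood apart. DMSO replicate 1 of UMSCC8 had 328 shRNAs with no reads, and its median correlation of log CPM with the other libraries of its line was 0.748 (the 9 libraries of UMSCC8 ranged from this value to 0.898). AZD8931 replicate 1 of UMSCC1 had 354 shRNAs with no reads and correlated at a median of 0.761, the lowest of its line. Gefitinib replicate 3 of UMSCC8 had the lowest total, 178406 counts. Beside the main counts and medians for UMSCC8 and UMSCC1, values without these libraries are given, a choice made after the values were seen.

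In the lines used for the choice, the median treated/DMSO ratio of the 34 shRNAs in UMSCC25 was 1.61 for gefitinib and 1.74 for AZD8931. In UMSCC8 the medians were 1.73 and 1.74, or 1.72 and 1.73 without DMSO replicate 1 and 1.80 for gefitinib without gefitinib replicate 3. The corresponding medians over the 2389 shRNAs above the DMSO floor were 0.929, 0.944, 0.932 and 0.970, so that a typical shRNA stood slightly below its DMSO mean. Among these 2389, the ratio criterion of a single contrast was met by 319 shRNAs in UMSCC25 with gefitinib and 426 with AZD8931, and by 466 and 397 in UMSCC8. The criterion for both inhibitors together was met by 146 of the 2389 shRNAs in UMSCC25 and by 242 of the 2389 in UMSCC8. The 34 are the shRNAs on both of these lists, or 23.3% of the first and 14.0% of the second. The size of this overlap was not tested. The opposite rule, ratios of at most 1 over 1.33 in all 4 contrasts, was met by 67 shRNAs.

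The shRNA that cleared the rule by the widest margin in its weakest contrast was TRCN0000001744. In UMSCC25 its DMSO plates stood at 265, 369.5 and 235 CPM and its gefitinib plates at 605, 593 and 569 CPM. Its AZD8931 plates in that line stood at 573, 558.7 and 906 CPM. All 6 treated plates were thus above all 3 DMSO plates. In UMSCC8 the DMSO plates stood at 77.3, 285 and 268 CPM, with the low value in the library that stood apart. The gefitinib plates there stood at 311, 333 and 824 CPM and the AZD8931 plates at 467, 366 and 259 CPM. The highest gefitinib value belonged to the shallowest library, and 1 AZD8931 plate lay below the 2 higher DMSO plates. The 4 ratios were 2.03, 2.35, 2.33 and 1.73.

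Next by the same measure came TRCN0000002318, with ratios of 1.94 and 2.66 in UMSCC25 and 1.71 and 2.35 in UMSCC8. Its AZD8931 plates in UMSCC8, 442, 519.6 and 502 CPM, were close to each other and above the DMSO plates at 145, 239 and 239 CPM. With gefitinib in UMSCC8 the plates were 350.0, 521 and 196 CPM, and the lowest of them fell among the DMSO plates. For TRCN0000037426 the AZD8931 plates in UMSCC25 were 231, 213 and 238 CPM against DMSO plates of 52.1, 105 and 200.1 CPM, a DMSO group that spanned a wide range. Its ratios were 1.62, 1.91, 1.60 and 1.82. For TRCN0000000489 all treated plates in UMSCC8 lay above DMSO, at 587, 413 and 488 CPM with gefitinib and 540.4, 448 and 669.6 CPM with AZD8931, whereas DMSO gave 351, 163 and 393 CPM. Its ratios were 1.60, 1.70, 1.64 and 1.83.

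One shRNA of the 34, TRCN0000000374, was far more abundant than the others. It was also the only 1 of the 34 with every treated plate above every DMSO plate in all 4 contrasts. No share over the shRNAs above the floor is given for this joint count, and the lines are those that chose the 34. In UMSCC25 its DMSO plates were 6156, 6229 and 6619 CPM, its gefitinib plates 11201, 11467 and 14059 CPM and its AZD8931 plates 9680.4, 13234 and 14699.9 CPM. In UMSCC8 the DMSO plates were 20191, 21688 and 20214 CPM, the gefitinib plates 40961, 32028 and 52084 CPM and the AZD8931 plates 29144, 41643 and 26942 CPM. The DMSO plates of each line lay within a narrow range, the treated groups were wider, and the groups did not overlap. By its DMSO mean it ranked 8 of the 3177 shRNAs in UMSCC25 and 4 in UMSCC8. It took 0.633% of the DMSO counts in UMSCC25, 1.22% with gefitinib and 1.25% with AZD8931. In UMSCC8 it took 2.07% of the DMSO counts, 4.17% with gefitinib and 3.26% with AZD8931. The ratios were 1.93, 1.98, 2.01 and 1.57, and without the highest treated plate of each contrast they were 1.79, 1.81, 1.76 and 1.35. The other 20 most abundant shRNAs of a line had median ratios of 0.974 and 0.965 in UMSCC25 and 0.983 and 0.922 in UMSCC8. Their highest single ratio was 1.52. In UMSCC25, 1 of these 20 reached the ratio of the rule with gefitinib and 2 with AZD8931. In UMSCC8, 2 and 1 did. Every treated plate exceeded every DMSO plate for 0 and 2 of them in UMSCC25 and for 2 and 2 in UMSCC8. TRCN0000000374 had to reach the ratio of the rule to be chosen, so that this comparison cannot tell whether it differs from them. Sampling of reads adds little error to the counts of TRCN0000000374, 2835 or more in every library of the 2 lines. Each count stands on 1 plate, however, and covers no difference between plates.

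At the edge of the rule stood TRCN0000001483 and TRCN0000000873, whose smallest ratios were 1.34 and 1.34. In UMSCC8 TRCN0000001483 had DMSO plates at 77.3, 341 and 373 CPM and gefitinib plates at 359.8, 355 and 342 CPM, so that its place among the 34 rested on the low value of DMSO replicate 1, the library that stood apart. Just outside the rule stood TRCN0000021465, with ratios of 1.33 and 1.499 in UMSCC25 and 3.80 and 3.98 in UMSCC8, the first of which missed the threshold in a later decimal. Also just outside stood TRCN0000003211, with ratios of 1.41, 2.34, 1.34 and 1.33.

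In the lines that chose them, many of the 34 did not separate from DMSO plate by plate. Every treated plate exceeded every DMSO plate for 12 of them in UMSCC25 with gefitinib and 20 with AZD8931, and for 14 and 16 in UMSCC8. Over the 2389 shRNAs above the floor the same held for 5.19%, 7.33%, 6.53% and 6.20%. Without DMSO replicate 1 of UMSCC8 it held there for 18 of the 34 with gefitinib and 19 with AZD8931, against 11.7% and 10.1%, and without gefitinib replicate 3 for 26 with gefitinib, against 13.6%, since fewer plates had to be cleared. For 2 of the 34 it held in none of the 4 contrasts, a joint count for which no share over the 2389 is given. When the highest treated plate of each contrast was left out, 6 shRNAs kept all 4 ratios at 1.33 or above, namely TRCN0000001744, TRCN0000000489, TRCN0000000374, TRCN0000037572, TRCN0000007046 and TRCN0000002139.

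The 34 shRNAs were also less abundant with DMSO than the shRNAs above the floor in general, with a median DMSO mean of 143 CPM against 219 in UMSCC25 and 185 CPM against 229 in UMSCC8. Their DMSO plates varied more, with a median coefficient of variation of 30.8% against 21.3% in UMSCC25 and 40.2% against 30.9% in UMSCC8. In UMSCC1, which did not enter the choice, their median DMSO mean was 171 CPM against 206 and the coefficient of variation was 40.8% against 38.6%. A DMSO plate was the lowest of the 9 libraries for 27 of the 34 in UMSCC25, against 17.8% of the shRNAs above the floor, and for 31 in UMSCC8, against 38.8%. DMSO replicate 1 of UMSCC8 alone was lowest for 17, against 21.9%. In UMSCC1 a DMSO plate was lowest for 10, or 29.4%, against 25.7% of the shRNAs above the floor. The DMSO means are part of the rule, and these values are a description of what it selects.

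In UMSCC8 TRCN0000002252 showed how much 1 DMSO library could weigh. It had 1, 97 and 163 counts on the DMSO plates, or 2.34, 236 and 322 CPM, and 412, 486 and 118 CPM on the gefitinib plates. Its ratio with gefitinib was 1.81, while the 2 other DMSO plates lay inside the range of the treated plates. Without DMSO replicate 1 of UMSCC8 the rule found 29 shRNAs, of which 22 were among the 34. Without gefitinib replicate 3 of UMSCC8 it found 40, of which 32 were among the 34.

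UMSCC1 addressed whether the 34 shRNAs were also higher in a line that had no part in their selection. All 34 were tested there among 3083 shRNAs with edgeR's quasi-likelihood test. With gefitinib 0 of the 34 were called higher at a Benjamini-Hochberg adjusted p under 0.05, and 0 were called lower, with a background of 0% of all shRNAs called higher. The edgeR standard errors of their log2 fold changes were 0.35 to 1.18 with gefitinib and 0.35 to 1.35 with AZD8931, as large as most of the differences. At an unadjusted p under 0.05, 2 of the 34 were higher with gefitinib, where 1.62% of all shRNAs were, and 0 were lower, against 2.08% of all. The count of 2 became 4 without AZD8931 replicate 1 and 0 without DMSO replicate 2. No share over all shRNAs is given for those fits. DESeq2 also called 0 of the 34 with either inhibitor.

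The median log2 fold change of the 34 with gefitinib in UMSCC1 was 0.24, against 0.01 over all shRNAs tested, and 22 of the 34, or 64.7%, were above 0, against 50.9% of all. The median treated/DMSO ratio was 1.24, with a range of 0.643 to 2.49, against a median of 1.04 for the shRNAs above the floor. A ratio of at least 1.33 was reached by 14 of the 34, or 41.2%, against a background of 28.7%. Every gefitinib plate exceeded every DMSO plate for 7 of the 34, or 20.6%, against 6.58%, and 0 of the 34 had every gefitinib plate below every DMSO plate, against 5.03%. Over the shRNAs above the floor these backgrounds were 7.12% and 4.98%. The size of this difference varied between plates. For single plates, log2 ratios to the DMSO means were taken on TMM-scaled CPM with 2 CPM added, unlike the unscaled treated/DMSO ratios. Their median over the 34 was 0.08, 0.40 and 0.24 on the gefitinib plates. On the DMSO plates themselves it was −0.45, 0.00 and 0.32, so that DMSO replicate 3 stood above 2 of the gefitinib plates. Without DMSO replicate 1 the median log2 fold change of the 34 was −0.022, against −0.011 over all shRNAs, with 16 of 34 above 0. Without DMSO replicate 3 it was 0.48, against −0.006 over all. No share of all shRNAs above 0 is given for these fits. The median ratio without DMSO replicate 1 was 1.09, against 1.08 for the shRNAs above the floor, and 22 of 34 ratios, or 64.7%, were above 1, against 57.3%. Every gefitinib plate then exceeded every remaining DMSO plate for 8 of the 34, against 13.3% of the shRNAs above the floor. For 0 of the 34 it lay below, against 7.91%. Whether the median of the 34 stood above the background with gefitinib in UMSCC1 thus turned on 1 DMSO plate. The plate-by-plate counts without it rest on few shRNAs, and whether they differed from their background was not tested.

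The 7 shRNAs with non-overlapping groups were TRCN0000000411, TRCN0000000489, TRCN0000002252, TRCN0000002318, TRCN0000003283, TRCN0000010218 and TRCN0000037572. For TRCN0000002252 the DMSO plates in UMSCC1 were 258, 77.3 and 279 CPM and the gefitinib plates 483, 493 and 433 CPM, a tight treated group above a DMSO group with 1 low plate. The edgeR log2 fold change was 1.19 (SE 0.55, unadjusted p = 0.0438, adjusted p = 1.00). With AZD8931 the plates of this shRNA were 58.3, 307 and 198 CPM and overlapped with DMSO. For TRCN0000000411 the DMSO plates were 276, 313 and 474 CPM and the gefitinib plates 752, 622 and 589.9 CPM, a log2 fold change of 0.83 (SE 0.45). Its AZD8931 plates were 168, 584 and 619 CPM, with the 2 higher ones above DMSO and replicate 1, the library that stood apart, below it. For TRCN0000003283 the gefitinib plates, 163, 121 and 102 CPM, lay above DMSO plates at 84.6, 38.6 and 36.6 CPM, but at a level of 39, 10 and 18 counts with DMSO. For TRCN0000000489 the gefitinib plates were 487, 651 and 508 CPM against 213, 371 and 269 CPM with DMSO, a log2 fold change of 0.86 (SE 0.51). Its AZD8931 plates, 77.8, 326 and 423 CPM, spanned the DMSO range.

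The largest log2 fold change of the 34 with gefitinib in UMSCC1 was that of TRCN0000001483, 1.30 (SE 0.53, unadjusted p = 0.0243, adjusted p = 1.00 by edgeR). Its DMSO plates were 243, 69.6 and 136 CPM, its gefitinib plates 456, 440.3 and 222 CPM and its AZD8931 plates 165, 199 and 329 CPM. DMSO replicate 1 lay above 1 gefitinib plate and 2 AZD8931 plates, so that the groups overlapped. This shRNA was the only 1 of the 3177 to meet the rule in all 3 lines, with ratios in UMSCC1 of 2.49 and 1.54. It stood at the lower edge of the rule in UMSCC8 and above the edge in UMSCC25, where its plates were 167, 229 and 222 CPM with DMSO, 397, 369.7 and 329.9 CPM with gefitinib and 307, 259 and 277 CPM with AZD8931, with no overlap. The same rule applied to UMSCC25 and UMSCC1 found 18 shRNAs and applied to UMSCC8 and UMSCC1 found 10, and TRCN0000001483 was the 1 member of the 34 on each of these lists.

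With AZD8931 in UMSCC1 the 34 shRNAs were centred near DMSO. By edgeR 0 were called higher, against 0% of all shRNAs, and 0 were called lower, with adjusted p-values from 0.4998 upward. At an unadjusted p under 0.05, 0 of the 34 were higher, against 4.83% of all shRNAs, and 1 was lower, against 4.67%. The median log2 fold change was −0.05, against −0.005 over all shRNAs, and 15 of 34, or 44.1%, were above 0, against 49.7%. Over the shRNAs above the floor the median was 0.04, and 52.9% were above 0. The median ratio was 0.929, with a range of 0.108 to 2.07, against 0.958 for the shRNAs above the floor. A ratio of at least 1.33 was reached by 7 of the 34, or 20.6%, against 24% of all. Every AZD8931 plate exceeded every DMSO plate for 1 shRNA, against 5.16%, and lay below every DMSO plate for 3, against 6.71%.

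These values depended on AZD8931 replicate 1. It was the lowest of the 9 UMSCC1 libraries for 17 of the 34 shRNAs, against 33.0% of the shRNAs above the floor. On TMM-scaled CPM, the median log2 ratio of the 34 to their DMSO means was −0.88 on that plate, 0.17 on replicate 2 and 0.02 on replicate 3. Without it the median ratio of the 34 was 1.11, against 0.999 for the shRNAs above the floor. The edgeR median log2 fold change was then 0.15, against −0.03 over all shRNAs, with 25 of 34 above 0 and 0 called. No share of all shRNAs above 0 is given for that fit. Every remaining AZD8931 plate then exceeded every DMSO plate for 3 of the 34, against 10.9%, and lay below for 3, against 9.38%.

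The 1 shRNA with every AZD8931 plate above DMSO was TRCN0000001440, at 143, 142 and 296 CPM with AZD8931, 86.8, 104 and 89.6 CPM with DMSO and 114, 97.6 and 39.3 CPM with gefitinib. Its log2 fold change with AZD8931 was 1.13 (SE 0.60, adjusted p = 0.563 by edgeR), and it was singled out after its values were seen. The 3 with every AZD8931 plate below DMSO were TRCN0000001219, TRCN0000002168 and TRCN0000037426. For TRCN0000037426 the AZD8931 plates were 2.43, 112 and 102 CPM against DMSO plates of 137, 166 and 226 CPM, whereas its gefitinib plates were 159, 353 and 197 CPM. The lowest value was again that of AZD8931 replicate 1, and the log2 fold change was −1.29 (SE 0.75), or −0.73 without that plate. Thus an shRNA that cleared the rule by a wide margin in UMSCC25 and UMSCC8 was among the lowest of the 34 with AZD8931 in UMSCC1.

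The lowest of the 34 in UMSCC1 with AZD8931, and for the mean of both inhibitors, was TRCN0000001219. Its AZD8931 plates held 0, 1 and 4 counts and its DMSO plates 12, 3 and 33 counts, and a count of 0 on AZD8931 replicate 1 allows up to 3 counts, or 7.29 CPM. The DMSO mean was 34.9 ± 28.8 CPM (SD, n = 3) and the AZD8931 mean 3.77 ± 3.78 CPM (SD, n = 3), a log2 fold change of −2.995 (SE 1.35, unadjusted p = 0.0389, adjusted p = 0.4998 by edgeR). With gefitinib the plates were 11.4, 42.2 and 39.3 CPM and overlapped with DMSO. In UMSCC25 and UMSCC8 the same shRNA had ratios of 2.12, 2.49, 1.496 and 1.55 at DMSO means of 72.7 ± 48.5 and 183 ± 89.8 CPM (SD, n = 3). It was 1 of 2 among the 34 under 50 CPM with DMSO in UMSCC1, the other being TRCN0000010268. For TRCN0000002168 the UMSCC1 plates were 39.1, 42.5 and 93.6 CPM with DMSO and 21.9, 33.7 and 34.0 CPM with AZD8931, adjacent groups at low abundance. For TRCN0000000873 the gefitinib plates, 64.4, 211 and 322 CPM, spanned the DMSO plates at 271, 213 and 267 CPM, and the AZD8931 plates were 94.8, 221 and 144 CPM.

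The mean of both inhibitors in UMSCC1 was tested as a single contrast, which can be high when only 1 inhibitor is, whereas the rule asks for each. There edgeR called 0 of the 34 higher, against 0% of all shRNAs, and 0 lower, and the adjusted p was 0.997 for each of them. At an unadjusted p under 0.05, 1 was higher, against 1.85% of all, namely TRCN0000001483 with a log2 fold change of 1.02 (SE 0.48, unadjusted p = 0.0442). The median log2 fold change was 0.19, against −0.01 over all shRNAs tested, and 24 of the 34, or 70.6%, were above 0, against 49.4%. Over the shRNAs above the floor the median was 0.02, and 52.1% were above 0. Without DMSO replicate 1 the median of the 34 was −0.006 and 17 of 34 were above 0, with no share over all shRNAs given for that fit. The median over all shRNAs was −0.07 to 0.01 when 1 library at a time was left out. A ratio of at least 1.33 with each inhibitor was reached by 1 of the 34, or 2.94%, against 9.76% of all. All 6 treated plates exceeded all DMSO plates for 0 of the 34, against 1.39%.

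By their mean ratios in UMSCC1 the 34 shRNAs fell into 4 patterns. Both ratios were above 1 for 10 of them, or 29.4%, against 28.0% of the shRNAs above the floor. These were TRCN0000001744, TRCN0000000374, TRCN0000010259, TRCN0000006317, TRCN0000007046, TRCN0000001352, TRCN0000003142, TRCN0000000411, TRCN0000000933 and TRCN0000001483. Only the gefitinib ratio was above 1 for 14, or 41.2%, against 26.7%. These were TRCN0000002318, TRCN0000037426, TRCN0000000489, TRCN0000037572, TRCN0000002279, TRCN0000002252, TRCN0000002139, TRCN0000010268, TRCN0000095034, TRCN0000021443, TRCN0000003283, TRCN0000037487, TRCN0000001949 and TRCN0000010218. Only the AZD8931 ratio was above 1 for 4, or 11.8%, against 18%, namely TRCN0000000980, TRCN0000006262, TRCN0000001440 and TRCN0000037493. Neither ratio was above 1 for 6, or 17.6%, against 27.4%, namely TRCN0000006236, TRCN0000001219, TRCN0000021562, TRCN0000002168, TRCN0000021425 and TRCN0000000873. With all 9 libraries the share above 1 with both inhibitors was close to the background, and the share above 1 with gefitinib alone was higher than its own. AZD8931 replicate 1 moves with this split. Without that plate 19 of the 34, or 55.9%, were above 1 with both inhibitors, against 33.3%, and 5, or 14.7%, with gefitinib alone, against 21.3%, and the AZD8931 ratio was above 1 for 25, or 73.5%, against 49.9%. Without DMSO replicate 1 the counts were 11 with both, or 32.4%, against 34.6%, and 11 with gefitinib alone, against 22.7%. The difference between the inhibitors in UMSCC1 was not tested.

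The pair that cleared the rule by the widest margins in their weakest contrasts fell into different patterns. For TRCN0000001744, the UMSCC1 plates were 299, 332 and 169 CPM with DMSO, 318, 403 and 450.5 CPM with gefitinib and 338, 348 and 217 CPM with AZD8931, and the log2 fold change with both inhibitors was 0.37 (SE 0.42). The groups overlapped. For TRCN0000002318 the gefitinib plates, 369, 200.4 and 197 CPM, exceeded the DMSO plates at 117, 88.9 and 183 CPM, while the AZD8931 plates were 9.72, 101 and 170.0 CPM. The AZD8931 group held the lowest of the 9 values, from replicate 1. The log2 fold change with AZD8931 was −0.43 (SE 0.68), and it was 0.08 without that plate. The shRNA with the largest single ratio of the 34, TRCN0000021562 with 3.84 for AZD8931 in UMSCC8, had UMSCC1 ratios of 0.955 and 0.929, and it was singled out after its values were seen.

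The most abundant shRNA, TRCN0000000374, had UMSCC1 plates at 6661, 10756 and 9141 CPM with DMSO, 10372, 11627 and 11246 CPM with gefitinib and 7725, 16833 and 10991 CPM with AZD8931. The 3 gefitinib plates were close together and 1 of them lay below the highest DMSO plate, and AZD8931 replicate 2 was the highest of the 9. The log2 fold change was 0.24 (SE 0.35) with gefitinib, 0.46 (SE 0.35) with AZD8931 and 0.35 (SE 0.31) with both, with an edgeR adjusted p of 0.694 for AZD8931. It ranked 6 by its DMSO mean in UMSCC1, and the DMSO plates of this line spread more, 8853 ± 2062 CPM (SD, n = 3), than those of UMSCC25, 6334 ± 249 CPM (SD, n = 3), or UMSCC8, 20698 ± 858 CPM (SD, n = 3). The other 20 most abundant shRNAs of UMSCC1 had median ratios of 0.911 with gefitinib and 1.06 with AZD8931, of which 3 and 6 reached 1.33. The ratios of this shRNA in UMSCC1, 1.25 and 1.34, lay within the ranges of these 20, 0.287 to 1.48 with gefitinib and 0.347 to 1.83 with AZD8931.

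Summed over the library, the 34 shRNAs took 1.24% to 1.33% of the counts on the DMSO plates of UMSCC25, 2.00% to 2.78% with gefitinib and 2.07% to 2.66% with AZD8931. In UMSCC8 they took 2.70% to 2.93% with DMSO, 4.54% to 6.34% with gefitinib and 4.00% to 5.68% with AZD8931. In UMSCC1 they took 1.41% to 2.06% with DMSO, 2.15% to 2.43% with gefitinib and 1.39% to 2.66% with AZD8931. The treated and DMSO ranges were apart in UMSCC25 and UMSCC8, as the rule requires of the means. In UMSCC1 the gefitinib range lay above the DMSO range and the AZD8931 range enclosed it. The low end of the AZD8931 range was replicate 1, and replicates 2 and 3, at 2.66% and 2.23%, lay above the DMSO range. Much of each sum came from TRCN0000000374, and without it the UMSCC1 shares were 0.747% to 1.15% with DMSO, 1.12% to 1.27% with gefitinib and 0.621% to 1.13% with AZD8931, so that the gefitinib and DMSO ranges then overlapped. AZD8931 replicates 2 and 3, at 0.974% and 1.13% without it, lay inside the DMSO range.

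Clones of the TRC collection with adjacent numbers often target the same gene, so that the closest numbers were examined although no gene was named. No pair among the 34 had clone numbers within 3 of each other. The 34 had 170 other shRNAs within 3 clone numbers, 122 of them above the floor. These neighbours had UMSCC25 median ratios of 0.871 (gefitinib) and 0.921 (AZD8931), and of 0.894 and 0.981 in UMSCC8, where the medians of all shRNAs above the floor were 0.929, 0.944, 0.932 and 0.970. In UMSCC1 their medians were 1.04 and 0.866, against 1.04 and 0.96 for all shRNAs above the floor. None of the 122 is among the 34, so that by definition none could meet the rule. Of the 122, 9 were above 1 in all 4 contrasts. The share over the shRNAs above the floor was 10.4%, and it includes the 34, which are above 1 by the rule. By clone number, 19 of the 34, or 55.9%, had numbers below 4000, where 45.6% of the shRNAs above the floor lay. The remainder were 7 between 4000 and 12000, 3 between 12000 and 36000, 4 between 36000 and 45000 and 1 above.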

How the data were processed

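The deposited table holds the raw counts that the authors obtained, as whole reads per shRNA for 27 libraries, not normalized. Each library was amplified by PCR from the genomic DNA of 1 plate of cells. The tools listed in the submitters' processing notes are edgeR and Bowtie 1.0.0, with hg19 as the build and no statement of their roles, and BiNG!S is the method named in the paper for shRNA reads. The table holds clone identifiers and no sequences, and sequences were not used here. Groups follow the line, agent and replicate number in the labels.

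CPM was the count divided by the library total, without further scaling. Only the log2 ratios of single plates to DMSO means used CPM scaled by TMM factors of the line, with 2 CPM added. The 34 shRNAs, the comparison sets and the tests were chosen with earlier results of these data known. The items named are those with the 4 widest and 2 narrowest margins of the rule, the 2 just outside it, the 4 highest and 4 lowest log2 fold changes for both inhibitors in UMSCC1 and the most abundant, besides any member called or within 3 clone numbers of another (0 of either). Other members are named where a count of them is given, and 2 are named after their values were seen.

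The UMSCC1 counts went into edgeR 4.0.16 (R 4.3.3; glmQLFit, robust, then glmQLFTest, with TMM factors), with the 9 libraries in 1 fit, shRNAs with at least 10 counts summed over them, no replicate term and Benjamini-Hochberg adjustment over all 3083 at a threshold of 0.05. Standard errors of log2 fold changes were taken as their size over the root of the quasi-likelihood F. The script was tested on simulated data. Alternatives were DESeq2 1.42.0, library totals, other filters, 6 or 27 libraries in the fit, a replicate block, each library left out, and other thresholds of the rule.

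Library totals were 178406 to 559422 counts, and a count of 0 allows up to 3 counts, or 16.8 CPM in the shallowest library. Reads were amplified without molecular identifiers and need not be independent molecules, so that this limit covers counting error only. No pair of plates of a group differed by less than sampling noise (lowest reduced chi-square 6.21). The sources do not say whether transduced cells of a line were pooled before they were divided over plates, and p-values measure the spread between 3 plates, which may be technical.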

Additional observations from a re-analysis of the deposited data

How the results depend on the processing

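None of the alternatives run called any of the 34 shRNAs in UMSCC1, with either inhibitor or with both. For all 3083 shRNAs edgeR called 0, at an unadjusted p under 0.05 it found 50 higher with gefitinib, 149 with AZD8931 and 57 with both, and other fits called a few, none of them among the 34. With AZD8931 DESeq2 called 7 higher and 17 lower, a fit of all 27 libraries called 3 higher and 1 lower, and edgeR without DMSO replicate 2 called 1 lower. With gefitinib the fit of 27 libraries called 1 higher, and with both inhibitors 2 lower. The median log2 fold change of the 34 with gefitinib, 0.24, ranged from −0.022 without DMSO replicate 1 to 0.48 without DMSO replicate 3, and it was 0.48 over the 8 shRNAs with ratios of at least 1.5. With AZD8931 it ranged from −0.16 without AZD8931 replicate 3 to 0.15 without AZD8931 replicate 1, and it was −0.29 over the 8 shRNAs with ratios of at least 1.5. With both inhibitors it ranged from −0.006 without DMSO replicate 1 to 0.27 without DMSO replicate 3, and it was 0.21 over those 8. With a replicate block it was 0.30, −0.12 and 0.21, with 0 called. Deviations of same-numbered plates from their group means correlated at −0.14 to 0.21, so that the numbers were not taken to pair the plates.

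The rule found 70 shRNAs at a ratio of 1.2, 8 at 1.5 and 22 at a floor of 100 CPM. It found 48 at a floor of 25 CPM and 47 with TMM scaling, in both cases with all 34 among them, and 33 with medians in place of means, of which 21 were among the 34. Leaving out 1 library at a time gave 24, without UMSCC25 gefitinib replicate 3, to 41, without UMSCC25 gefitinib replicate 2. Over the 12 shRNAs followed by name, 15 settings gave 180 values for both inhibitors in UMSCC1, of which 0 were called and 1 changed sign. Many of these 12 were named for the highest or lowest log2 fold changes in this contrast, which favoured stable signs. The count does not cover the other members. Several of them changed sign when 1 library was left out, and others did not. For example, TRCN0000001949 ranged from −0.74 to 0.68, and TRCN0000000933 stayed at 0.13 to 0.41. Standard errors of the 34 were at least 0.31 for the mean of both inhibitors, with 3 plates a group. The causes of these shifts were not tested.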
